A study of Homo sapiens with 24 samples.

Results

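The autophagy and lysosome genes were the 73 genes, of 23106 counted, whose symbol begins with ATG and a digit, with ATP6V, GABARAP or MAP1LC3, is CTS with a single further letter, is LAMP1, LAMP2, LAMP3, WIPI1 or WIPI2, or is ULK1, ULK2, BECN1, SQSTM1, TFEB, TFE3 or MITF. They were chosen by symbol and not by a measured value, though the rule was set with earlier results of these data known. PolyA RNA was sequenced from 4 established human cancer cell lines, namely A549 from lung, HCT-116 from colon, PC3 from prostate and T47D from breast. Each line was kept at 21% oxygen (normoxia) or at 0.5% oxygen for 16 h (hypoxia), with 3 libraries for each line and condition and 24 libraries in all. A549 and PC3 grew in F12K medium, T47D in DMEM and HCT-116 in a McCoy medium, so that, except between A549 and PC3, the line and its medium cannot be told apart in a comparison of lines. No genetic change or drug was applied to any group. The labels do not say whether the 3 libraries came from separate cultures, and p-values therefore measure the spread between these libraries, which may be technical.

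Autophagy encloses cytoplasm in a double membrane, the autophagosome, and delivers it to the lysosome for breakdown. The ULK1 kinase complex and the BECN1 lipid kinase complex start the process, ATG9 proteins, ATG2 proteins and WIPI proteins supply lipid and mark the growing membrane, and a pair of ubiquitin-like conjugation systems attaches the small ATG8 proteins (the LC3 and GABARAP families) to it. The lysosome is made acidic by the V-ATPase, a proton pump with a membrane sector (V0) and a cytosolic sector (V1), holds cathepsin proteases, is lined by LAMP proteins, and has many genes under the MiT transcription factors TFEB, TFE3 and MITF. Several autophagy genes are known for a response to low oxygen, in particular the mitophagy receptors BNIP3 and BNIP3L.

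Library totals ran from 22698584 to 62850747 counts with a median of 56109795.5, and the 73 genes took between 0.375% and 0.833% of a library. The hypoxia markers CA9, EGLN3 and VEGFA were higher in every hypoxic library than in every normoxic library of the same line, in all 12 pairings of gene and line. The lines' tissue markers were partly absent. T47D held ESR1 (116 to 191 CPM, counts scaled to library size) and PGR (575 to 993 CPM). TFF1, also listed for T47D, was at 0.789 to 7.30 CPM there and at 15.7 to 32.9 CPM in PC3. HCT-116 held CDX2 (10.5 to 21.4 CPM) and had CDX1 and CEACAM5 at 0 in every library. Its other listed markers CDH17, VIL1 and LGALS4 were at no more than 0.138, 0.128 and 0.0926 CPM. PC3 had KLK3, KLK2 and FOLH1 at 0 in every library and HOXB13 at 75.1 to 127 CPM. A549 had SFTPA1 at 0, SFTPC at no more than 0.102 CPM and NKX2-1 at no more than 0.0752 CPM. It held CDH17, listed as a marker of HCT-116, at 8.53 to 17.1 CPM. The blood marker HBB was at 0 in all libraries.

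Of the 73 genes, 11 belong to the conjugation systems, 5 to initiation, 6 to membrane supply, 8 to the ATG8 family, 10 to V0, 13 to V1, 13 to the cathepsins, 3 to the LAMP proteins and 3 to the MiT factors, and 1 is the cargo receptor SQSTM1. The pseudogene ATP6V0CP3 and CTSG, a protease of neutrophils, were at 0 in every library. In all, 58 genes had enough counts to be tested in all 4 lines and 8 genes were tested in none. ATG101, CTSL and CTSV were listed under the older symbols C12orf44, CTSL1 and CTSL2 and were therefore not among the 73. In bulk RNA, fewer cells of a type and less RNA per cell cannot be told apart. Levels are given in CPM and effects as log2 fold changes of hypoxia against normoxia with their standard error (SE). A gene is called higher or lower where the Benjamini-Hochberg adjusted p over all genes of that line, from edgeR's quasi-likelihood test, was under 0.05 and the fold change over 1.2.

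In hypoxia, A549 had 20 of 64 tested autophagy and lysosome genes called higher (31.3%, against 17.6% of all genes tested) and 10 called lower (15.6%, against 17.8%). HCT-116 had 12 of 61 higher (19.7%, against 23.3%) and 16 lower (26.2%, against 27%). PC3 had 12 of 61 higher (19.7%, against 16.6%) and 7 lower (11.5%, against 15.7%), and T47D had 2 of 64 higher (3.13%, against 6.55%) and 5 lower (7.81%, against 6.69%). The median log2 fold change was 0.18 over the genes tested in A549, beside -0.01 over all genes, and lay between -0.02 and 0.02 in HCT-116, PC3 and T47D, beside -0.03 to -0.01. The hypoxic and normoxic libraries did not overlap for 39 of 64 genes in A549 (against 48.1% of all genes), 34 of 61 in HCT-116 (60.3%), 32 of 61 in PC3 (51.4%) and 22 of 64 in T47D (32.5%).

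These counts moved with the libraries and the scaling. In T47D no gene was called without normoxic library 1 or without normoxic library 2, none was called lower without hypoxic library 1, 1 was called lower without hypoxic library 2, 4 were higher and 10 lower without hypoxic library 3, and 8 were higher and 8 lower without normoxic library 3. The replicate numbers paired the T47D libraries, and a fit with the number as a block gave 8 higher and 5 lower. In PC3 the calls fell to 7 higher and 2 lower without hypoxic library 1, to 5 and 2 without hypoxic library 2 and to 7 and 4 without normoxic library 1, were 3 lower without hypoxic library 3, and rose to 13 lower without normoxic library 2. In A549 they were 13 higher without normoxic library 2 and 6 lower without normoxic library 1. Scaling by total counts alone lowered the median of all genes to -0.13 in A549 and -0.12 in T47D, and changed the split from 20 higher and 10 lower to 14 and 13 in A549 and from 12 and 7 to 9 and 11 in PC3.

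**Figure D1:**
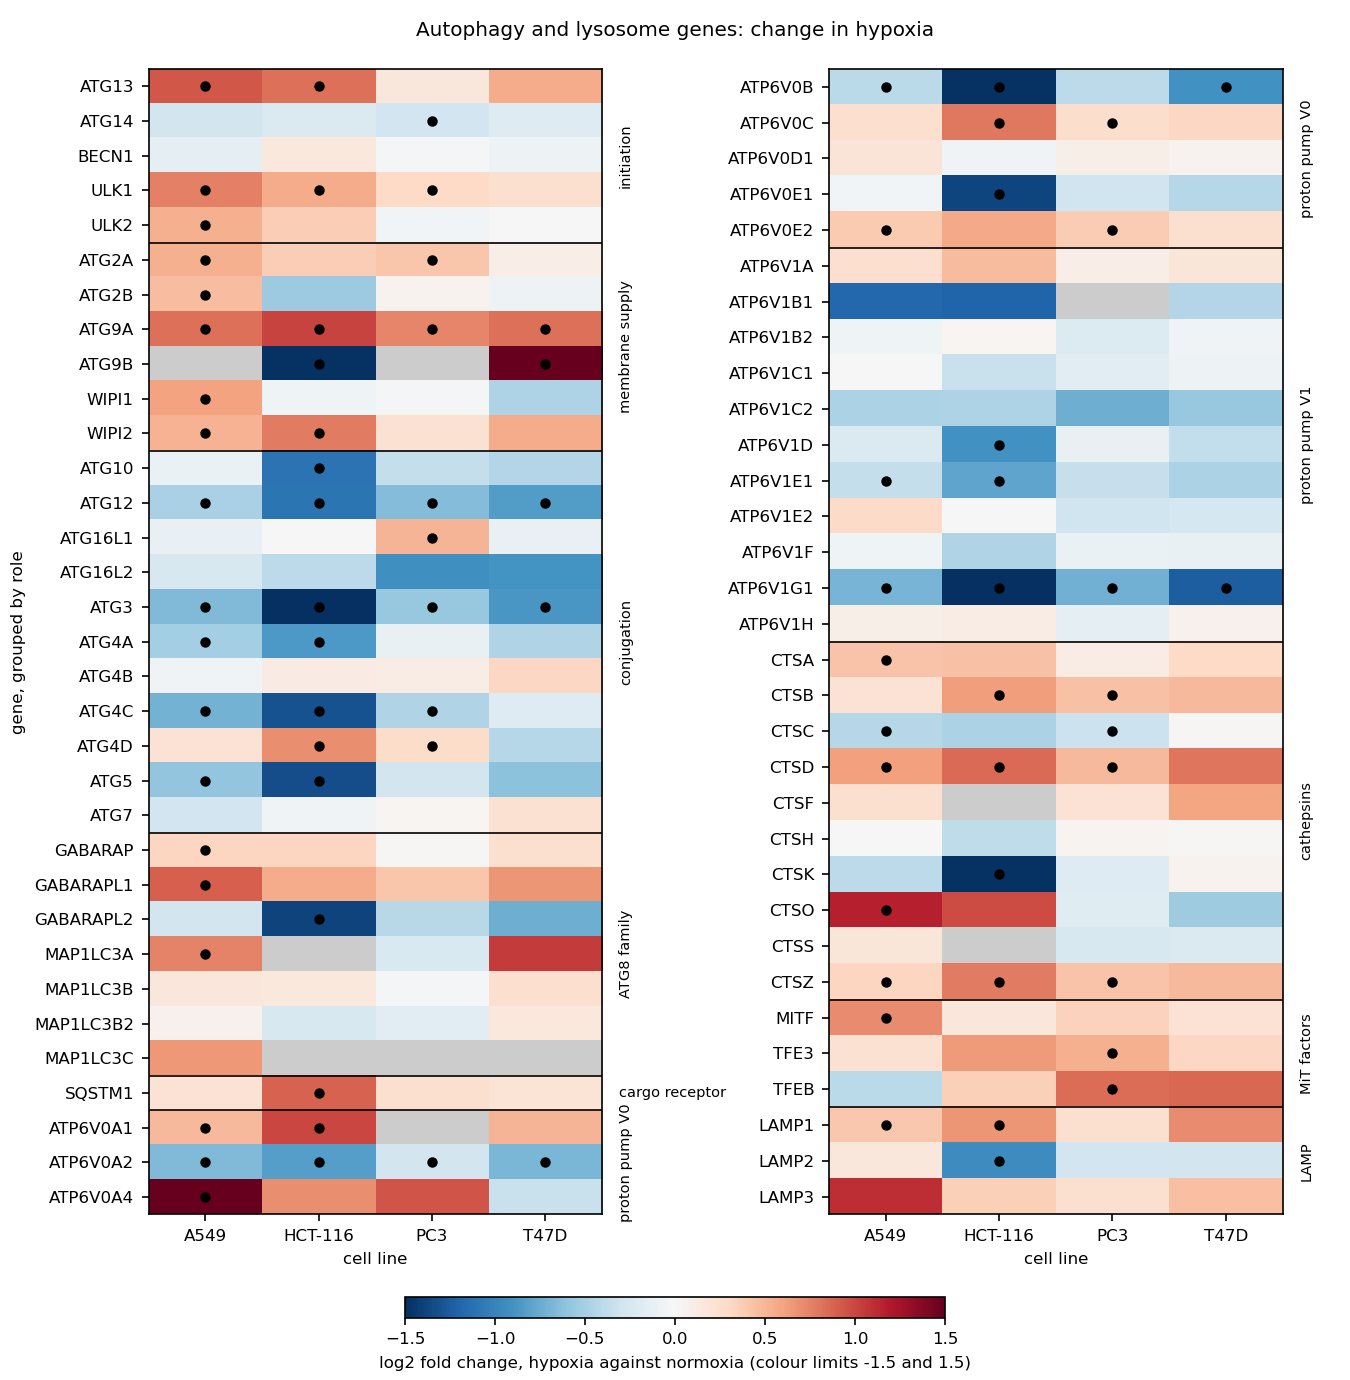
Log2 fold change in hypoxia of every autophagy and lysosome gene tested in at least 1 line (rows, grouped by role) in the 4 lines (columns). Red is higher and blue lower in hypoxia, with colours capped at -1.5 and 1.5, grey is not tested, and a black dot marks a call. The conjugation rows ATG3 and ATG12 and the pump rows ATP6V0A2 and ATP6V1G1 are blue with a dot in all 4 columns, and ATG9A is red with a dot in all 4.

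Across lines, 28 genes were called higher in at least 1 line, 18 lower in at least 1 line, ATG9B in both directions, and 20 were tested in some line and called in none. The same direction in 3 or 4 lines was reached by 4 higher genes (ATG9A, ULK1, CTSD and CTSZ) and 6 lower genes (ATG12, ATG3, ATP6V0A2, ATP6V1G1, ATG4C and ATP6V0B). Of these, 5 were called in all 4 lines. Such counts over lines were not made for all genes, so whether they are unusual cannot be told. ATG9A (chr2:220084102-220094439, minus strand, GRCh37) was higher, and ATG3 (chr3:112251357-112280893, minus strand), ATG12 (chr5:115163897-115177534, minus strand), ATP6V0A2 (chr12:124196900-124246302, plus strand) and ATP6V1G1 (chr9:117349986-117361195, plus strand) were lower.

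Promoters of these 5 genes are shown because they moved alike in all 4 lines. RefSeq (GRCh38.p14) gives 250 bases before to 50 bases after each start, 5′ to 3′ on the gene's strand. In that build the windows are chr2:219229587-219229886 for ATG9A, chr3:112561913-112562212 for ATG3 and chr5:115841516-115841815 for ATG12, all minus strand, and chr12:123712103-123712402 for ATP6V0A2 and chr9:114587519-114587818 for ATP6V1G1, both plus strand. Capitals mark ACGTG or GCGTG on either strand, the core at which hypoxia-inducible factors bind.
ATG9A: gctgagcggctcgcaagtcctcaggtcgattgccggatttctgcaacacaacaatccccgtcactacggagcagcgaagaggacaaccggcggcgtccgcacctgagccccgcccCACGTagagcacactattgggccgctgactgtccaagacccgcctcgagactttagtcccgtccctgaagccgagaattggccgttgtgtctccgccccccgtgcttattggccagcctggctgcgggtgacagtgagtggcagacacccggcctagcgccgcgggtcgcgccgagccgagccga
ATG3: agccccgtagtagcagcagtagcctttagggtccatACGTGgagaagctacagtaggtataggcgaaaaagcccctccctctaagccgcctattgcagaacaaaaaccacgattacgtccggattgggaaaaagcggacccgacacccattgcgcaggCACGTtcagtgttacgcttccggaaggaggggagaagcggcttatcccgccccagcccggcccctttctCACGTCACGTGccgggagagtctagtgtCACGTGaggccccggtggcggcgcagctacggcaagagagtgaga
ATG12: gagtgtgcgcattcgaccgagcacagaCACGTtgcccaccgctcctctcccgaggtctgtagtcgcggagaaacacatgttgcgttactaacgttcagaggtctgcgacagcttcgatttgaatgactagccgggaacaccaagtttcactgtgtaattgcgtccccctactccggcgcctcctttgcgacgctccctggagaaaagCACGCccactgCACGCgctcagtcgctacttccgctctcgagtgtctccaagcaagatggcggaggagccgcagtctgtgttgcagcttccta
ATP6V0A2: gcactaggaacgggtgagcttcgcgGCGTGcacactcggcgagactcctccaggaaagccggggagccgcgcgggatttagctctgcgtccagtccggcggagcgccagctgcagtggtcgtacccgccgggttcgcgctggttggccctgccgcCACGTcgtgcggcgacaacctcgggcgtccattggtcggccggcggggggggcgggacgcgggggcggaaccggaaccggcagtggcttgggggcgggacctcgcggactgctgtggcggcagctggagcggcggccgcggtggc
ATP6V1G1: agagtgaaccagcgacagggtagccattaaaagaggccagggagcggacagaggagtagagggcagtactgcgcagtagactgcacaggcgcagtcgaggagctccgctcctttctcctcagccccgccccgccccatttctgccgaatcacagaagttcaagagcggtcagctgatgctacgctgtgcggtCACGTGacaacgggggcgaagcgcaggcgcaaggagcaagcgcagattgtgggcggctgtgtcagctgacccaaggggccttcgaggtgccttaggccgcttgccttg

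Promoters were matched for 55 of the 73 genes. ACGTG or GCGTG occurred in 34 of the 55 (61.8%) and in 48.4% of all 27305 promoters of the same length, and CACGTG, which contains ACGTG on both strands, in 10 (18.2%) against 7.44%. The longer CLEAR element, which TFEB and its relatives bind and which contains CACGTG, was searched in its palindromic form and occurred in 1 of the 55, that of ATP6V1G1, and in 0.381% of all promoters. A match was present for 15 of the 23 genes called higher in some line and lower in none, for 12 of the 14 called lower and higher in none, and for 6 of the 13 tested and called in none. The promoter of ATG9A held 1 match, that of ATG3 7, that of ATG12 3 and those of ATP6V0A2 and ATP6V1G1 2 each. A match is a string of letters and not a measured binding site.

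Initiation genes were higher or not called in A549 and HCT-116. ULK1, the kinase that starts autophagosome formation, was 103, 122 and 114 CPM in the normoxic A549 libraries and 211, 205 and 158 CPM in the hypoxic ones, which lay above all normoxic values. Its log2 fold change was 0.76 ± 0.13 (SE, adjusted p = 0.00119, edgeR). ULK1 was also called higher in HCT-116 (0.55, adjusted p = 0.04) and PC3 (0.30, adjusted p = 0.0358), and was 0.25 with adjusted p = 0.552 in T47D. The HCT-116 call was lost without hypoxic library 2 or 3 or normoxic library 1 or 3 and the PC3 call without any hypoxic library or normoxic library 1, with adjusted p of up to 0.12 and 0.154. With GC and length correction ULK1 was 0.33 and called in A549, and turned to -0.33 in HCT-116 and -0.13 in PC3, neither called. ATG13, the adaptor subunit of the ULK1 complex, rose from 57.1 ± 8.14 to 109 ± 3.89 CPM in A549 (SD, n = 3; log2 fold change 0.93, adjusted p = 0.000231 by edgeR) and from 33.7 ± 2.43 to 59.6 ± 5.19 CPM in HCT-116 (0.82, adjusted p = 0.00222). ULK2, the relative of ULK1, was called higher in A549 alone of the 4 lines (0.54, adjusted p = 0.00269), and ATG14, a subunit of the BECN1 complex, was called lower in PC3 alone (-0.28, adjusted p = 0.0357), a call lost without any hypoxic library or normoxic library 1 or 3 (adjusted p of up to 0.115). After the correction for GC and length 2 initiation genes were higher in A549 and 2 in HCT-116, where the median turned from 0.36 to -0.18, and 1 was lower in PC3. BECN1, the scaffold of that complex, was called in no line. Its log2 fold changes ran from -0.14 in A549 to 0.16 in HCT-116, where GC correction gave 0.55 and a call (adjusted p = 0.0312).

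All 5 tested membrane supply genes were called higher in A549, and 2 of 6 in HCT-116, 2 of 5 in PC3 and 2 of 6 in T47D. The higher shares of all genes were 17.6%, 23.3%, 16.6% and 6.55% in the same order. The correction for GC and length gave 3 higher in A549, 1 higher and 3 lower in HCT-116, 1 higher in PC3 and 2 higher in T47D, and the HCT-116 median turned from 0.15 to -0.18. ATG9A is the lipid scramblase carried by the vesicles that seed the autophagosome. Its normoxic levels were 59.6, 54.4 and 70.9 CPM in A549 and its hypoxic levels 117, 109 and 102 CPM. In HCT-116 they were 52.6, 37.9 and 42.3 CPM against 90.9, 90.3 and 86.5 CPM. In PC3 they were 69.2, 72.9 and 61.7 CPM against 123, 109 and 107 CPM. Every hypoxic library lay above every normoxic one in each of these lines, and T47D showed the same order at a lower level. There the values were 22.5, 27.2 and 29.5 CPM in normoxia and 41.7, 47.4 and 51.6 CPM in hypoxia. The log2 fold changes of ATG9A were 0.83 ± 0.12 in A549 (adjusted p = 0.000491), 1.01 ± 0.19 in HCT-116 (adjusted p = 0.000872), 0.74 ± 0.1 in PC3 (adjusted p = 0.00174) and 0.83 ± 0.2 in T47D (adjusted p = 0.0182), each with its SE. The T47D call was lost without normoxic library 1 or 2, where adjusted p was 0.0766 to 0.13. After correction for transcript GC content and length the effects of ATG9A were 0.57, 0.49, 0.48 and 0.55, each still called.

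**Figure D2:**
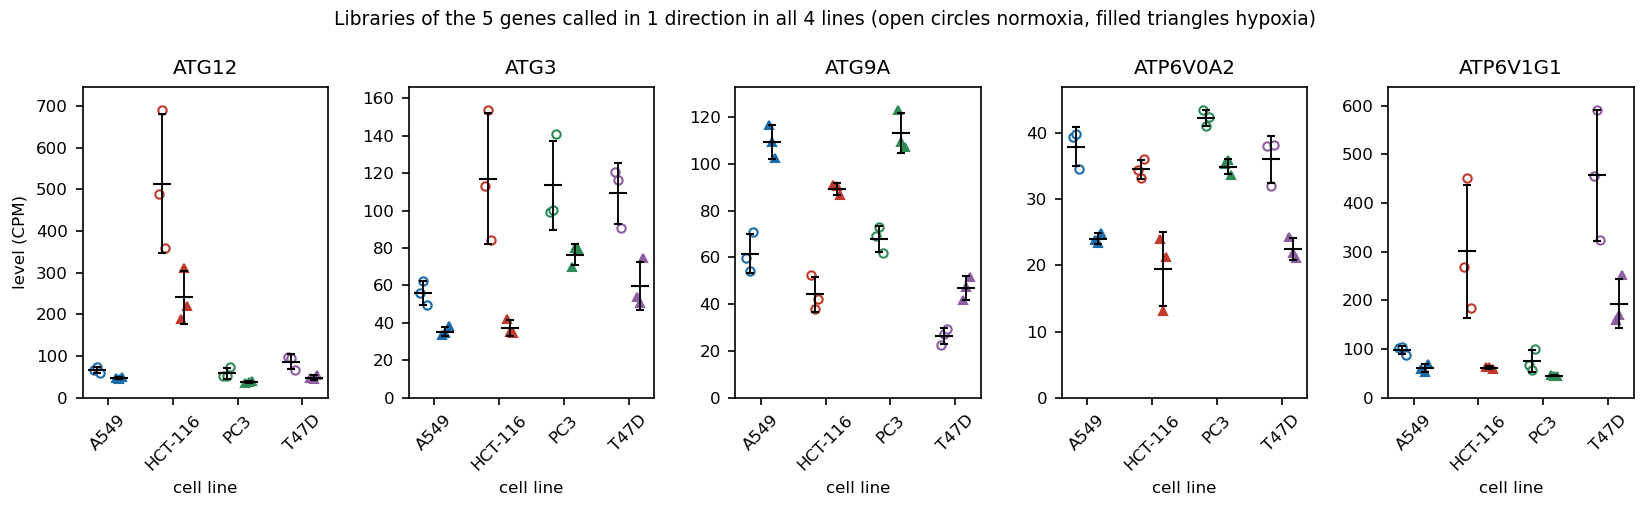
Level in CPM (linear axes from 0) of ATG12, ATG3, ATG9A, ATP6V0A2 and ATP6V1G1 in each library of the 4 lines. Open circles are normoxic and filled triangles hypoxic libraries, and bars give the mean and SD of 3. In each line the hypoxic ATG9A libraries lie above and those of the other genes below all normoxic libraries.

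The other membrane supply genes of A549 that were called were WIPI1 and WIPI2, which bind the lipid made by the BECN1 complex, and ATG2A and ATG2B, which carry lipid into the membrane. WIPI1 had a log2 fold change of 0.60 and WIPI2 of 0.53 there. ATG2A was 0.53 and lost its call without hypoxic library 1 or normoxic library 1 (adjusted p of 0.0504 to 0.0696), and ATG2B was 0.46 and lost it without normoxic library 1 or 2 (0.0685 to 0.0766). After GC and length correction 3 of the 5 calls remained, those of ATG9A, WIPI1 and WIPI2. WIPI2 was also higher in HCT-116 (0.78, adjusted p = 0.0038), and was 0.39 there after GC correction, not called (0.0887). ATG9B, the second ATG9 gene, was the only gene called in opposite directions. It was low in both lines where it was tested. In HCT-116 it was 1.44, 1.90 and 0.924 CPM in normoxia and 0.255, 0.931 and 0.289 CPM in hypoxia, with overlapping groups (-1.48 ± 0.54, adjusted p = 0.0361), and in T47D 0.454, 0.329 and 0.463 CPM against 2.03, 2.52 and 1.10 CPM, with no overlap (2.18 ± 0.46, adjusted p = 0.0119). The HCT-116 call was lost when any of 4 libraries was left out (hypoxic 1 or 3, normoxic 1 or 2, adjusted p of 0.0899 to 0.161) and the T47D call without normoxic library 1 or 2 (0.0719 to 0.0862). ATG9B shares 12.3% of its exonic bases with NOS3 on the opposite strand.

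Before correction for GC and length, lower calls outnumbered higher calls in every line among the conjugation genes, as among the V1 genes below. Of all genes, 17.8%, 27%, 15.7% and 6.69% were called lower in A549, HCT-116, PC3 and T47D. The shares called higher were 17.6%, 23.3%, 16.6% and 6.55%. All 11 conjugation genes were tested in each line, with 0 higher and 5 lower in A549, 1 and 6 in HCT-116, 2 and 3 in PC3 and 0 and 2 in T47D. Their median log2 fold changes were -0.29, -0.87, -0.27 and -0.44. With GC and length correction these counts were 0 and 3, 0 and 3, 1 and 1, and 0 and 2, and the medians -0.26, -0.34, -0.13 and -0.27. The enzymes that moved acted at different steps. ATG3 attaches ATG8 proteins to lipid, ATG12 and ATG5 form the conjugate that directs it, ATG10 joins these, and ATG4A and ATG4C cut ATG8 proteins.

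ATG3 was 55.9, 62.2 and 49.7 CPM in normoxic and 33.4, 34.4 and 38.1 CPM in hypoxic A549 libraries. In HCT-116 it was 113, 154 and 84.2 CPM against 42.2, 35.0 and 34.7 CPM. The groups did not overlap in either line, and normoxic HCT-116 libraries differed from each other more than those of A549. In PC3 it was 99.4, 100.2 and 141 CPM against 69.9, 79.9 and 79.6 CPM, and in T47D 121, 116 and 90.6 CPM against 54.0, 50.6 and 74.4 CPM, again without overlap. The log2 fold changes were -0.66 ± 0.12 (adjusted p = 0.00134), -1.65 ± 0.23 (0.00018), -0.57 ± 0.14 (0.0139) and -0.87 ± 0.22 (0.0227) in A549, HCT-116, PC3 and T47D. The PC3 call was lost without hypoxic library 1 (adjusted p = 0.0592) and the T47D call without hypoxic or normoxic library 1 or 2 (0.0864 to 0.143). With GC and length correction ATG3 was -0.40, -0.98 and -0.60 in A549, HCT-116 and T47D, each called, and -0.29 in PC3 with adjusted p = 0.0631.

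ATG12 had its highest level in HCT-116, at 490, 691 and 359 CPM in normoxia and 190, 312 and 221 CPM in hypoxia. In A549 it was 66.7, 74.6 and 60.3 CPM against 47.9, 45.7 and 50.4 CPM, in PC3 51.2, 51.3 and 73.1 CPM against 34.7, 36.9 and 40.5 CPM, and in T47D 97.1, 96.4 and 66.3 CPM against 47.1, 44.1 and 54.2 CPM. No pair of groups overlapped. The log2 fold changes of -0.49, -1.09, -0.65 and -0.84 in A549, HCT-116, PC3 and T47D had adjusted p of 0.00596, 0.0049, 0.00953 and 0.0233. After GC and length correction they were -0.15, -0.16, -0.28 and -0.39 and none was called, with adjusted p of 0.217, 0.597, 0.0583 and 0.117. The T47D call was also lost without hypoxic or normoxic library 1 or 2 (0.0799 to 0.147).

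ATG5 fell from 54.0 ± 7.62 to 35.7 ± 3.34 CPM in A549 (SD, n = 3; -0.60, adjusted p = 0.00406 by edgeR) and from 136 ± 37.4 to 54.0 ± 3.55 CPM in HCT-116 (-1.33, adjusted p = 0.000366), and both calls remained after GC correction. ATG4C was lower in A549 (-0.71, adjusted p = 0.00456), HCT-116 (-1.31, adjusted p = 0.000311) and PC3 (-0.45, adjusted p = 0.035). With GC correction ATG4C was -0.26, -0.08 and 0.02 in these lines, not called. The PC3 call of ATG4C was also lost without any single hypoxic library or normoxic library 3 (adjusted p of 0.0743 to 0.111). ATG4A was lower in A549 (-0.51) and HCT-116 (-0.87), and ATG10 in HCT-116 (-1.11), and the A549 call of ATG4A was lost without hypoxic or normoxic library 1 or 2 (0.0788 to 0.151). In the other direction, the protease ATG4D was higher in HCT-116 (0.70, adjusted p = 0.00737) and in PC3 (0.28, adjusted p = 0.0411), and ATG16L1, which places the ATG12 and ATG5 conjugate on the membrane, was higher in PC3, from 112, 98.04 and 101 CPM to 158, 131 and 153 CPM (0.51, adjusted p = 0.00704). After GC correction ATG4D was 0.42 in HCT-116 and 0.10 in PC3, neither called (0.0682 and 0.359). The PC3 call of ATG4D was also lost without any hypoxic library or normoxic library 1 (0.0503 to 0.158). ATG7, the activating enzyme of both systems, and ATG4B were called in no line. ATG7 was -0.29 in A549 (adjusted p = 0.0891) and -0.46 with a call after GC correction (0.0264).

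Members of the ATG8 family differed in direction. In A549, 3 of 7 tested were higher and none lower, against 17.6% and 17.8% of all genes tested. GABARAPL1 was 27.3, 23.6 and 23.7 CPM in normoxia and 52.0, 41.3 and 46.0 CPM in hypoxia, with no overlap (0.90 ± 0.12, adjusted p = 0.000283). MAP1LC3A rose from 5.50 ± 0.732 to 9.25 ± 0.584 CPM (0.75, adjusted p = 0.00414 by edgeR) and GABARAP from 186 ± 7.48 to 233 ± 19.3 CPM (0.33, adjusted p = 0.032), both SD with n = 3. The GABARAP call was lost without hypoxic library 2 or 3 or normoxic library 1 or 2 (0.0708 to 0.122). In HCT-116, GABARAPL2 was 97.7, 177 and 85.2 CPM in normoxia and 40.1, 54.5 and 43.2 CPM in hypoxia (-1.39 ± 0.27, adjusted p = 0.000984), and was -0.29 after GC correction with adjusted p = 0.241. No ATG8 gene was called in PC3 or T47D, where 6 were tested in each. MAP1LC3B, the LC3 most used as a marker of autophagosomes, was not called in any line, with log2 fold changes of -0.02 to 0.25. MAP1LC3B2 lay at 3.34 CPM or lower on average, MAP1LC3C was tested in A549 alone, and GABARAPL3 was tested in none. MAP1LC3B2 is nearly identical in sequence to MAP1LC3B and GABARAPL3 to GABARAPL1, so that the counts of these genes are uncertain.

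SQSTM1, the receptor p62 that brings ubiquitin-tagged cargo to the ATG8 proteins, was called higher in HCT-116. It was 229, 187 and 256 CPM in normoxia and 370.0, 441 and 435 CPM in hypoxia, with no overlap (0.89 ± 0.21, adjusted p = 0.00335). It was 0.62 and still called after GC correction. In A549, where it was highest, it was 1160, 1227 and 1409 CPM against 1364, 1465 and 1572 CPM (0.21, adjusted p = 0.167). PC3 had 0.24 and T47D 0.21, neither called. SQSTM1 shares 21% of its exonic bases with C5orf45 on the opposite strand.

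Among the V1 genes of the proton pump no gene was called higher in any line. Lower calls were 2 of 11 tested in A549, 3 of 11 in HCT-116, 1 of 10 in PC3 and 1 of 11 in T47D. Over all genes tested the lower shares were 17.8%, 27%, 15.7% and 6.69% in the same order. The higher shares were 17.6%, 23.3%, 16.6% and 6.55%. With GC and length correction 1, 1, 2 and 0 were higher and 1, 1, 0 and 1 lower. ATP6V1G1, a subunit of the stalk that links V1 to V0, was the V1 gene called in all lines. It was 269, 451 and 184 CPM in normoxic and 63.6, 64.2 and 58.9 CPM in hypoxic HCT-116 libraries. In T47D it was 456, 592 and 323 CPM against 159, 169 and 251 CPM. The hypoxic HCT-116 libraries were close to each other and the normoxic ones spread widely. In A549 ATP6V1G1 was 102, 105 and 88.2 CPM against 59.0, 53.9 and 69.1 CPM, and in PC3 67.3, 57.3 and 101 CPM against 47.1, 44.3 and 45.7 CPM. The log2 fold changes were -0.69 ± 0.12 (adjusted p = 0.00144), -2.28 ± 0.29 (0.00012), -0.72 ± 0.18 (0.0144) and -1.24 ± 0.27 (0.0137) in A549, HCT-116, PC3 and T47D. The PC3 call was lost without hypoxic library 2 (adjusted p = 0.053) and the T47D call without hypoxic library 1 or normoxic library 1 or 2 (0.0562 to 0.103). With GC correction ATP6V1G1 was -0.30, -1.19 and -0.83 in A549, HCT-116 and T47D, each called, and -0.26 in PC3 with adjusted p = 0.071. ATP6V1E1, a stalk subunit, was lower in A549 (-0.35, lost without hypoxic or normoxic library 1 or 2, adjusted p of 0.0736 to 0.152) and HCT-116 (-0.79), and ATP6V1D, of the central shaft, in HCT-116 (-0.91, adjusted p = 0.00376), where it was 0.05 after GC correction. The catalytic subunit ATP6V1A was called in no line, and with GC correction it was called higher in A549 (0.38), HCT-116 (0.85) and PC3 (0.27).

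The V0 genes were split. ATP6V0A2, an isoform of the large membrane subunit linked to the Golgi, was lower in all 4 lines and ATP6V0A1, another isoform of that subunit, was higher in A549 and HCT-116. ATP6V0A2 was 39.3, 39.8 and 34.5 CPM in normoxic and 23.8, 23.4 and 24.9 CPM in hypoxic A549 libraries, and 34.3, 33.1 and 36.0 CPM against 23.9, 13.2 and 21.3 CPM in HCT-116. It was 43.4, 41.0 and 42.4 CPM against 35.2, 35.8 and 33.7 CPM in PC3, and 38.0, 31.9 and 38.1 CPM against 24.3, 21.9 and 21.1 CPM in T47D. The groups did not overlap in any line, and PC3 had the smallest fall of the 4. The log2 fold changes were -0.66 ± 0.11, -0.83 ± 0.22, -0.28 ± 0.087 and -0.68 ± 0.19 in A549, HCT-116, PC3 and T47D, with adjusted p of 0.000886, 0.00795, 0.0353 and 0.0328. With GC correction they were -0.74, -0.94, -0.35 and -0.69, all called. The replicate block did not call it in PC3. The PC3 call of ATP6V0A2 was lost without any hypoxic library or normoxic library 1 (0.0847 to 0.124) and the T47D call without hypoxic or normoxic library 1 or 2 (0.0753 to 0.156).

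ATP6V0A1 rose from 49.95 ± 4.2 to 69.9 ± 2.28 CPM in A549 (0.49, adjusted p = 0.00456 by edgeR) and from 30.8 ± 6.51 to 61.6 ± 1.06 CPM in HCT-116 (0.9998, adjusted p = 0.00114), with SD and n = 3. With GC correction it was 0.14 and 0.33 in these lines, not called. ATP6V0B, of the proton-carrying ring, was lower in A549 (-0.40, adjusted p = 0.0301), HCT-116 (-1.48, adjusted p = 0.000344) and T47D (-0.91, adjusted p = 0.0284), and all 3 remained called after correction. Its A549 and T47D calls were each lost without hypoxic or normoxic library 1 or 2, with adjusted p of 0.0902 to 0.118 and 0.104 to 0.162. ATP6V0C, the main ring subunit, was higher in HCT-116 (0.79, adjusted p = 0.00355) and PC3 (0.27, adjusted p = 0.0437), and ATP6V0E1 was lower in HCT-116 (-1.37, adjusted p = 0.000599). The PC3 call of ATP6V0C was lost without normoxic library 1 or 3 or any hypoxic library (highest adjusted p = 0.162). ATP6V0A4, the isoform known from kidney, was higher in A549 at under 1 CPM, with 0.371, 0.0678 and 0.222 CPM against 0.764, 0.622 and 0.583 CPM (1.58 ± 0.54, adjusted p = 0.0388), and this call was lost without any hypoxic library or normoxic library 2 or 3 (0.0535 to 0.136).

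Among the cathepsins, 4 were higher and 1 lower of 10 tested in A549, 3 and 1 of 8 in HCT-116, 3 and 1 of 10 in PC3 and none of 10 in T47D. Of all genes tested, 17.6%, 23.3%, 16.6% and 6.55% were higher in A549, HCT-116, PC3 and T47D. The lower shares were 17.8%, 27%, 15.7% and 6.69%. The replicate block called 2 higher in T47D. With GC and length correction and no block, the counts were 3 and 1, 2 and 0, 2 and 0, and none. The HCT-116 median fell from 0.53 to 0.11. CTSD, the aspartic protease of the lysosome, was 375, 330.3 and 401 CPM in normoxic and 559, 577 and 554 CPM in hypoxic A549 libraries. In HCT-116 it was 87.8, 73.4 and 97.0 CPM against 153, 164 and 148 CPM, and in PC3 356, 372 and 328 CPM against 545, 491 and 438 CPM. In each of these lines every hypoxic library was above every normoxic one. The log2 fold changes were 0.61 ± 0.11, 0.85 ± 0.19 and 0.48 ± 0.11, with adjusted p of 0.00156, 0.00265 and 0.00951, and 0.45, 0.55 and 0.30 after GC correction, each called. In T47D CTSD was 1141, 1000.3 and 2065 CPM against 2035, 2031 and 3256 CPM, with overlapping groups (0.80 ± 0.32, adjusted p = 0.116), and was called higher with the replicate block.

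CTSZ, a carboxypeptidase, was higher in A549 (0.32, adjusted p = 0.0365), HCT-116 (0.78, adjusted p = 0.00507) and PC3 (0.42, adjusted p = 0.0144), and was -0.015, 0.19 and 0.10 after GC correction, not called. It shares 31.65% of its exonic bases with NELFCD on the opposite strand. The A549 call of CTSZ was lost without hypoxic or normoxic library 1 or 2 (0.095 to 0.143) and the PC3 call without hypoxic library 2 or normoxic library 1 (0.0535 to 0.0638). CTSO was at 1.002, 1.02 and 1.04 CPM in normoxic and 2.13, 2.34 and 2.41 CPM in hypoxic A549 libraries (1.17 ± 0.25, adjusted p = 0.00455). CTSB was higher in HCT-116 and PC3, CTSA in A549, and CTSC, which activates serine proteases of immune cells, was lower in A549 (-0.43, adjusted p = 0.0084) and PC3 (-0.32, adjusted p = 0.0215), where GC correction gave -0.19 and no call (0.0802). CTSK was lower in HCT-116 at 1.97 against 0.709 CPM. The calls of CTSB in HCT-116, CTSA in A549, CTSC in A549 and PC3 and CTSK in HCT-116 were each lost without at least 1 library, with adjusted p of up to 0.179, 0.0559, 0.0511, 0.0877 and 0.255. CTSL, counted as CTSL1, was lower in A549 (532 against 282 CPM, -0.92, adjusted p = 0.000176) and not called in the other lines.

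LAMP1 and LAMP2, the main glycoproteins of the lysosomal membrane, differed in HCT-116. LAMP1 was 178, 123 and 165 CPM in normoxia and 261, 228 and 245 CPM in hypoxia (0.66 ± 0.21, adjusted p = 0.017), and LAMP2 117, 162 and 138 CPM against 72.1, 76.6 and 68.2 CPM (-0.94 ± 0.19, adjusted p = 0.00154). Neither gene's groups overlapped. LAMP1 was also higher in A549 (0.41, adjusted p = 0.0331). The LAMP1 call was lost without hypoxic library 3 in HCT-116 (adjusted p = 0.0511) and without hypoxic library 2 or 3 or normoxic library 1 or 2 in A549 (0.0569 to 0.151). After GC correction LAMP1 was 0.48 in HCT-116 (adjusted p = 0.0501) and 0.32 in A549 (0.0695), and LAMP2 was -0.34 in HCT-116 (0.134) and 0.34 with a call in A549 (0.0235). LAMP3 was called in no line.

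The MiT factors were called in 2 lines. MITF rose in A549 from 29.0, 29.3 and 42.0 CPM to 50.6, 53.4 and 59.8 CPM (0.71 ± 0.15, adjusted p = 0.00355). In PC3, TFE3 rose from 89.9, 106 and 80.6 CPM to 147, 130.5 and 122 CPM (0.53 ± 0.12, adjusted p = 0.00985) and TFEB from 1.80, 1.92 and 1.91 CPM to 3.33, 3.69 and 3.07 CPM (0.84 ± 0.2, adjusted p = 0.0117), each without overlap. TFEB lost its call without hypoxic library 2 (0.0598). After GC correction TFEB was 0.57 in PC3 (0.052). In A549 TFEB had a log2 fold change of -0.40 (adjusted p = 0.103), and -0.67 with a call after GC correction (0.0154). In T47D TFEB was 0.86 with adjusted p = 0.0595, and the blocked fit called it higher.

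The replicate block added 6 higher calls in T47D, those of ATG13, CTSD, CTSF, LAMP1, TFEB and WIPI2, and kept the 7 calls made without it. GC and length correction kept 18 of 30 calls in A549, 13 of 28 in HCT-116, 7 of 19 in PC3 and 6 of 7 in T47D. Calls over all genes were not counted with the correction, so whether these losses are particular to the autophagy and lysosome genes cannot be told. The median GC content of the transcripts was 52.2% for genes called higher and 40.15% for those called lower in A549, 56.1% and 42.6% in HCT-116, 61.9% and 39.9% in PC3, and 61.55% and 40.4% in T47D. By these medians, higher calls lay on more GC-rich transcripts than lower calls in each line. Single genes went the other way, such as CTSO (40.45%), higher in A549, and ATP6V0B (53.18%), lower there. GC content by call was not computed for all genes. ATG9A, at 59.8% GC, and ATP6V0A2, at 43.4%, were the genes of the 5 called in all lines whose calls were kept in all 4 lines.

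**Figure D3:**
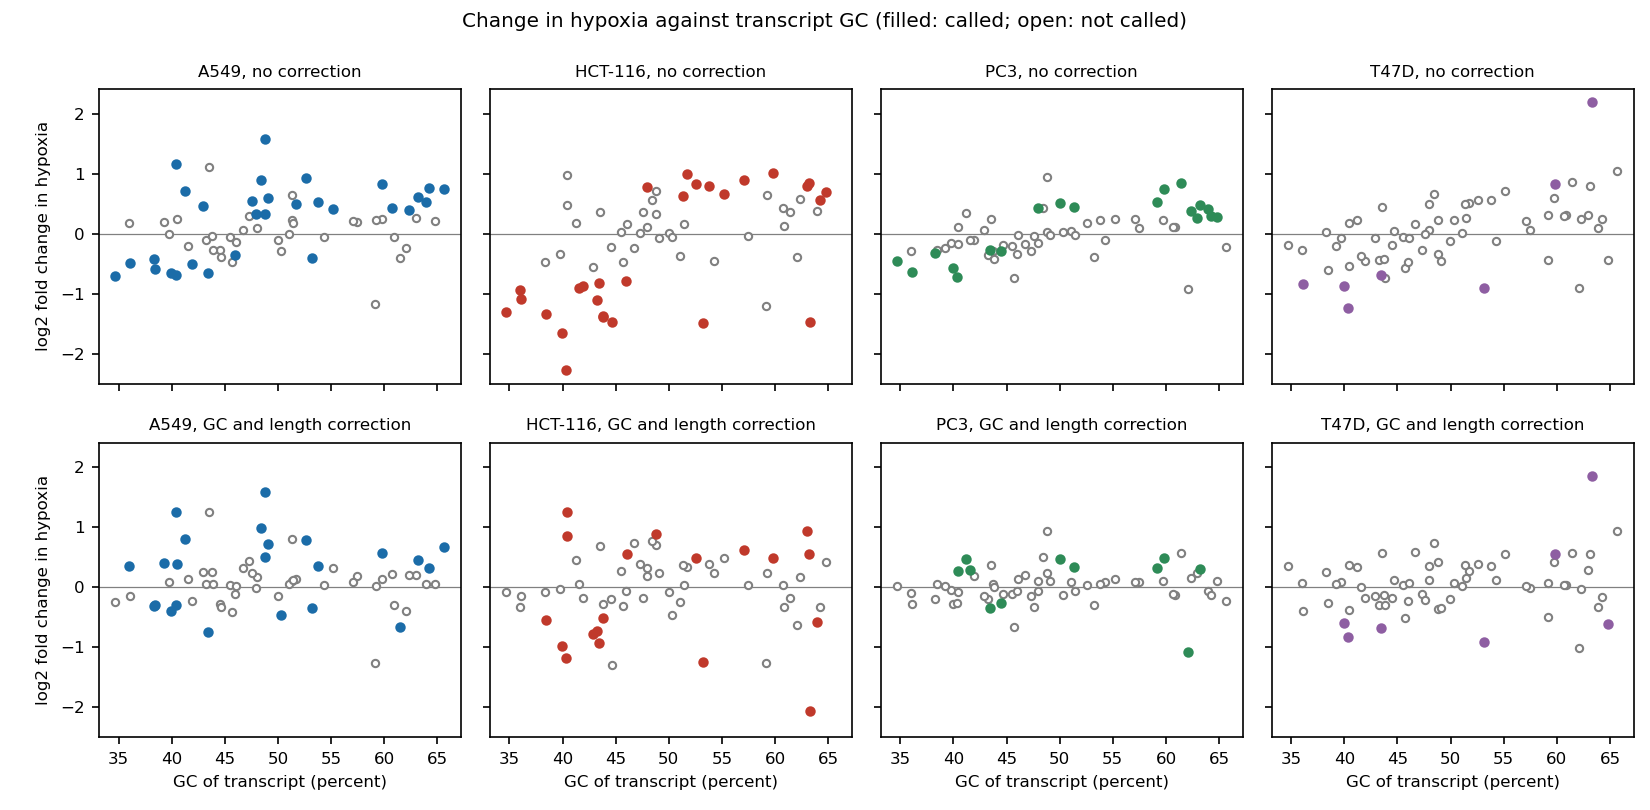
Log2 fold change in hypoxia (vertical axis) against transcript GC in percent (horizontal axis) for the autophagy and lysosome genes tested in each line. The top row is before and the bottom row after correction for GC and length. Filled points were called and open points were not. The tilt from lower left to upper right in the top row, with called medians of 42.6% GC for lower and 56.1% for higher genes in HCT-116, is less steep in the bottom row. The correction was itself fitted on GC, so a flatter tilt follows from how it was made and is not a result.

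The effect of hypoxia differed between lines, by an interaction test over all 24 libraries, for 15 of 65 genes tested (23.1%, against 18.3% of all genes). This count was 6 without normoxic library 2 of HCT-116, 8 without hypoxic library 3 of HCT-116 and 9 without hypoxic library 3 of A549. Compared with the mean of the other 3 lines, HCT-116 had 5 genes above (7.69%, against 10.8%) and 11 below (16.9%, against 10.7%). A549 had 0 above (against 0.541%) and 1 below, TFEB (1.54%, against 0.901%), PC3 1 above, ATG16L1 (1.54%, against 0.622%), and 0 below (against 1.36%), and T47D 0 above (against 1.54%) and 2 below, ATG4D and CTSO (3.08%, against 0.858%). The TFEB difference was lost without any single A549 library, the PC3 count was 0 without normoxic library 1 or 2 or hypoxic library 3 of PC3 among others, and the T47D count was 1 without hypoxic library 1 or 2 or normoxic library 2 or 3 of T47D. The HCT-116 total of 16 was 9 without its hypoxic library 3 and 4 without its normoxic library 2.

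The HCT-116 difference on the log2 scale was -1.31 ± 0.28 for ATP6V1G1 (SE, adjusted p = 0.00285). CTSS, also among the 11 below, had 13, 9 and 7 counts in normoxic and 0, 6 and 0 counts in hypoxic HCT-116 libraries and was too low to be tested in that line alone, so that its difference is not given. ATP6V0E1 had a difference of -1.04 (adjusted p = 0.00506), ATG3 of -0.86 (0.00544), ATP6V0B of -0.84 (0.0167) and LAMP2 of -0.74 (0.00774). Above the mean of the other 3 lines were ATG4D (0.76, adjusted p = 0.00381), SQSTM1 (0.74, 0.0223), ATP6V0C (0.59, 0.0368) and CTSO (0.91, 0.0447). The CTSO effect in this fit was 1.10 in HCT-116 and 1.17 in A549, so HCT-116 was not above A549. The difference of the other gene above, ATP6V0A1, is not given because the mean of the other lines includes a PC3 effect of -1.96 fitted to 13 counts or fewer per library, beside 0.49 in A549, 0.58 in T47D and 1.12 in HCT-116 in the same fit. T47D differed in ATG4D by -0.81 (adjusted p = 0.00828) and in CTSO by -1.18 (0.0315). ATG4D was 17.1, 26.4 and 20.9 CPM in normoxic and 15.2, 15.4 and 17.1 CPM in hypoxic T47D libraries, against the rise in HCT-116 from 19.1, 16.0 and 15.7 CPM to 25.7, 29.8 and 26.9 CPM. ATG4D shares 14.7% of its exonic bases with KRI1 on the opposite strand.

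In normoxia, 61 of 64 genes tested differed in level between the 4 lines (against 93.5% of all genes), and the 3 others were ATP6V0A2, ATP6V1F and CTSK. Levels here are CPM per kilobase of transcript, scaled over the 12 normoxic libraries. The 5 tested genes with the largest ratio of the highest to the lowest line mean were CTSF, ATP6V1B1, ATP6V0A1, MAP1LC3A and CTSS. A line mean of 0 was read as an infinite ratio. The ratio was 119 for CTSS. It is not given for ATP6V0A1, which had 1, 13 and 2 counts in the normoxic PC3 libraries, or for MAP1LC3A, which had 2, 0 and 2 counts in those of HCT-116, and could only be bounded for CTSF and ATP6V1B1, which were at 0 in all normoxic libraries of a line. ATP6V0A1 was 9.15 ± 2.3 in T47D, 6.64 ± 0.57 in A549, 3.86 ± 0.76 in HCT-116 and 0.0143 ± 0.014 in PC3 (SD, n = 3). The T47D and A549 libraries of ATP6V0A1 ran from 7.73 to 11.8 and from 6.05 to 7.18 and did not overlap.

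CTSF was 21.9 ± 5.2 CPM per kb in T47D, 15.7 ± 1 in A549 and 1.04 ± 0.25 in PC3, and 0 in HCT-116, so that T47D was at least 789-fold higher against a floor of 3 counts per library. ATP6V1B1, which shares 63.1% of its exonic bases with VAX2, was 0 in PC3 and at least 9.94-fold higher in T47D on the same floor. Its place among the 5 rests on that 0, and measured ratios of other genes, such as 22.9 for CTSC, were above this bound. MAP1LC3A was 6.30 ± 0.83 CPM per kb in A549 and at or under 0.302 in the other lines. CTSS, a cathepsin of antigen presentation, was 5.55 ± 1.1 in A549, 0.615 ± 0.14 in PC3, 0.103 ± 0.017 in T47D and 0.0467 ± 0.016 in HCT-116.

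CTSD was the most abundant cathepsin of T47D, at 602 ± 270 CPM per kb, and was 186 in A549, 163 in PC3 and 41.1 in HCT-116. The normoxic libraries of A549 (166 to 203) and PC3 (147 to 177) overlapped in CTSD. CTSC was 85.1 ± 1.5 in PC3, 10.98 ± 0.81 in A549, 7.002 ± 0.76 in HCT-116 and 3.71 ± 0.56 in T47D, with each line's libraries apart from the next. SQSTM1 was 492 ± 50 in A549 and 82.7, 81.9 and 78.9 in HCT-116, PC3 and T47D, which lay within each other's spread. ATG12 was 132 ± 39 in HCT-116 and between 14.6 and 19.9 in the others. MITF was 7.69 in A549 and 5.24 in PC3, against 0.314 in HCT-116 and 0.335 in T47D.

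**Figure D4:**
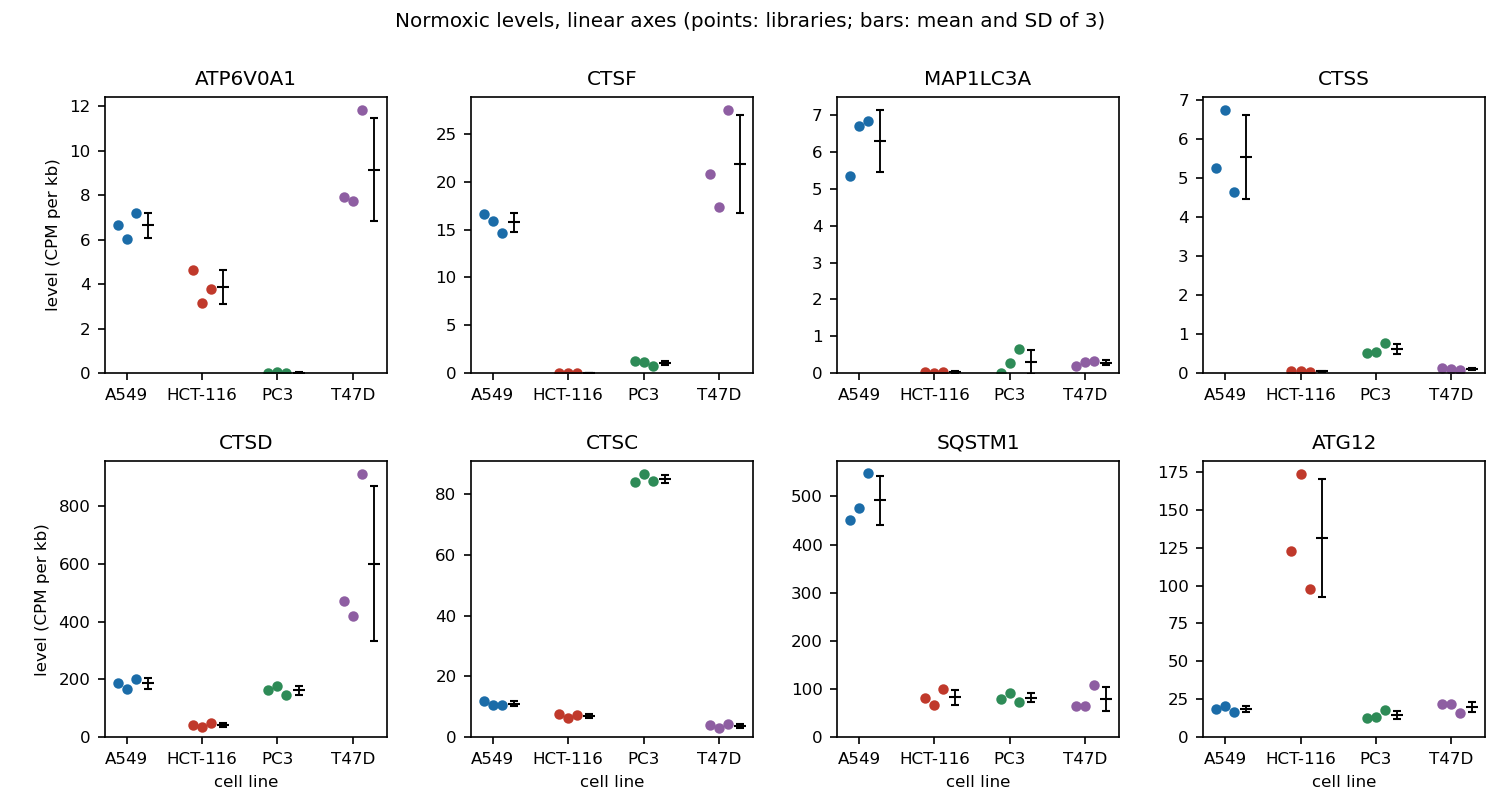
Normoxic level in CPM per kb (linear axes from 0) of 8 autophagy and lysosome genes in the 3 libraries of each line, with mean and SD beside the points. ATP6V0A1 is near 0 in PC3 and CTSF is at 0 in HCT-116, MAP1LC3A, CTSS and SQSTM1 are highest in A549, CTSC in PC3, CTSD in T47D and ATG12 in HCT-116.

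ATP6V0A1 had 0 to 13 counts in the 6 PC3 libraries and 1119 to 6937 counts in the 18 libraries of the other lines. Its neighbours were then read, a step chosen after these values were seen. Within 500 kb on either side on chromosome 17 (GRCh37), 34 other genes reached a median of 1 CPM in the other lines. Of these, 7 genes were at 0 in all 6 PC3 libraries, namely KAT2A, RAB5C, GHDC, STAT5B, STAT5A, STAT3 and PTRF, which stand in a row among the 34 before the start of ATP6V0A1 (chr17:40610862-40674600). STAT3 had 1416 to 21709 counts and RAB5C 3623 to 19433 counts in the other lines. NAGLU, the next gene of the 34 on the other side, had 241 to 606 counts in PC3, and NKIRAS2, the next before KAT2A, 525 to 1387. STAT5A was also at 0 in some library of another line. BECN1, in the same window, had 831 to 2011 counts in PC3. These are RNA counts, and the DNA of the line was not measured here.

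**Figure D5:**
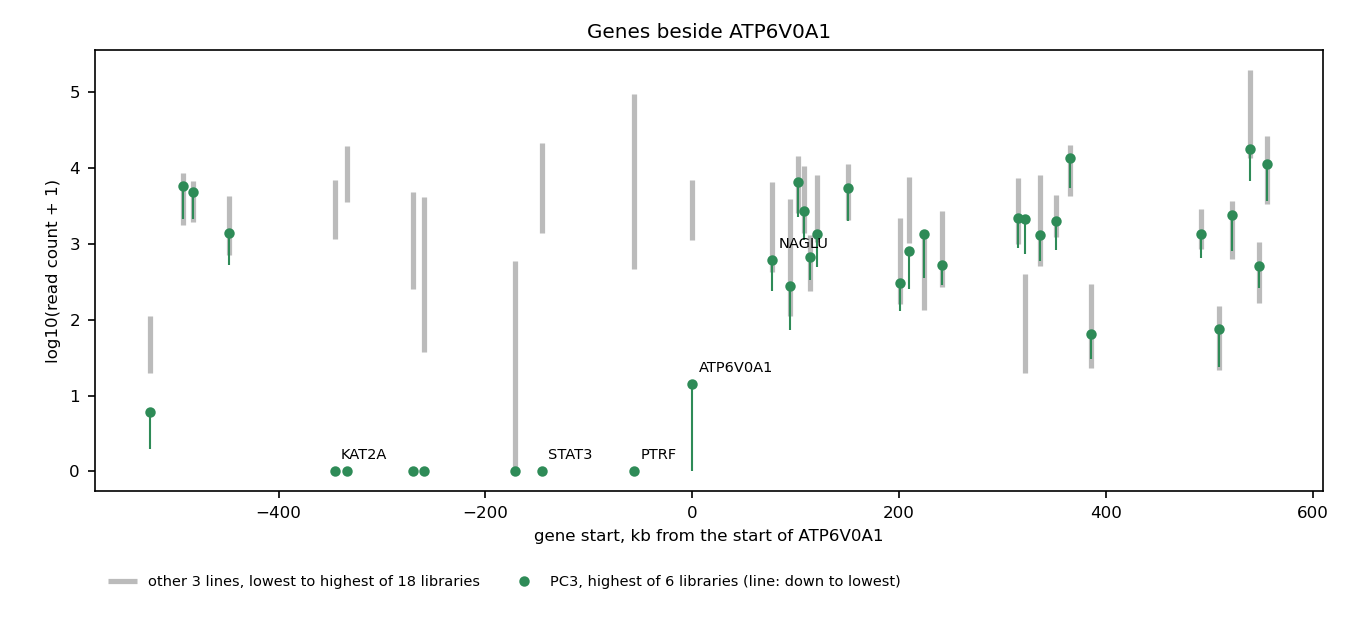
Counts as log10(count + 1) of ATP6V0A1 and the 34 genes beside it, placed by the distance in kb of each gene's start from that of ATP6V0A1. Grey bars span the lowest to the highest of 18 libraries of A549, HCT-116 and T47D, and green points with lines span the 6 PC3 libraries. The 7 genes from KAT2A to PTRF lie at 0 in PC3, ATP6V0A1 at 13 counts or fewer and NAGLU at 241 or more.

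Other genes of the pathway were read from 6 lists with 121 genes. In A549 43 of 119 tested were higher and 6 lower (against 17.6% and 17.8% of all genes), in HCT-116 34 and 32 of 118 (23.3% and 27%), in PC3 16 and 9 of 117 (16.6% and 15.7%) and in T47D 10 and 3 of 119 (6.55% and 6.69%). Among cargo receptors BNIP3, a receptor for mitophagy, was 77.6, 80.6 and 72.9 CPM in normoxic and 245, 225 and 239 CPM in hypoxic A549 libraries (1.62, adjusted p = 9.67e-07), and had log2 fold changes of 2.95, 1.23 and 3.60 in HCT-116, PC3 and T47D. BNIP3L, its relative, had 2.42, 2.499, 0.51 and 1.86 in the same order, all called. Among tested members of the 73, the highest rise was 2.18, for ATG9B in T47D.

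Of the initiation and nucleation list, VMP1, a membrane protein needed for autophagosome formation, was lower in HCT-116 (-1.41) and EPG5, a tether of autophagosomes to lysosomes, was higher in A549 (0.59) and HCT-116 (1.05). Of the fusion list, VAMP8 was lower in HCT-116 (-1.27) and PLEKHM1 higher in HCT-116 (0.86) and PC3 (0.63). Of the 37 hydrolases, 15 of 35 tested were higher and 1 lower in A549, 12 and 8 of 34 in HCT-116, 1 and 0 of 33 in PC3 and 1 and 0 of 35 in T47D, against the same shares of all genes. GGH, a folate hydrolase, was lower in A549 (-0.57) and HCT-116 (-2.23), and ASAH1, the acid ceramidase, in HCT-116 (-1.89). IGF2R, the receptor that carries mannose 6-phosphate enzymes to the lysosome, was higher in all 4 lines (1.17, 1.42, 0.59 and 0.80). GPNMB was higher in A549 (0.87) and lower in HCT-116 (-2.23). Of the nutrient sensing list, RRAGD was higher in A549 (1.60), HCT-116 (1.61) and T47D (2.23), and LAMTOR3, of the Ragulator scaffold, was lower in HCT-116 (-1.82), PC3 (-0.60) and T47D (-1.03).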

How the data were processed

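Per the labels and the study's methods, the authors trimmed polyA RNA-seq reads with Trim Galore 0.3.3, aligned them to GRCh37 with HISAT2 2.05, removed non-unique fragments with Picard 2.0.1 and counted reads per gene with HTSeq 0.5.4p3. The deposited values are raw counts, 1 file per library. The kit was directional. Whether counting used strand is not given in the sources used here, so reads of overlapping genes on opposite strands may be shared.

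The rule for members, the gene lists and the tests were chosen with earlier results of these data known. For each line, edgeR 4.0.16 in R 4.3.3 (TMM scaling, filterByExpr, quasi-likelihood F-test, Benjamini-Hochberg adjustment) compared 3 hypoxic with 3 normoxic libraries, with a call at an adjusted p under 0.05 and a fold over 1.2. The SE is the log2 fold change over the root of F. A fit of 24 libraries gave the interaction and the contrast of each line with the mean of the other 3, and a fit of 12 normoxic libraries gave the levels. GC and length came from the longest GENCODE 44 transcript of each symbol on GRCh37, present for 73 of 73 members. Members are named if called 1 way in 3 or 4 lines, called both ways, among the 3 largest non-overlapping changes of a line or the 5 largest normoxic ratios, or in the ATG8, LAMP, MiT or SQSTM1, BECN1 and ULK1 set. Other members named were chosen after their values were seen. Of each pathway list the 2 with the largest mean absolute change are named.

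The alternatives were other scalings, no filter, DESeq2 1.42.0, a replicate block, 1 fit of all libraries, a GC and length spline (5 df) and each library left out. The spline was fitted on genes averaging 50 counts or more and applied to every gene with a transcript, including those with fewer counts. The GC correction of the fit over 24 libraries was added after seeing the data. Scripts were tested on simulated data. Correlations of same-numbered deviations from the group means were 0.195 to 0.31 in T47D, all over the limit of 0.1 used, so that its numbers were taken to pair the libraries. The main T47D calls are still from the fit without the block, as in the other lines, and blocked counts are given separately. HCT-116 and PC3 libraries also correlated best with their own numbers, with lowest values of 0.0818 and 0.0989. Floors of 3 counts cover counting error only. Of the cell line marker genes, 1 is not reported here.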

Additional observations from a re-analysis of the deposited data

Results flagged for a closer look

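The effect of hypoxia differed between the 4 lines for 15 autophagy and lysosome genes, each by the interaction term of the fit over 24 libraries in edgeR with adjustment over all genes. The adjusted p was 0.00368 for ATG4D, 0.0053 for CTSO and 0.0102 for ATP6V1G1, and these 3 stayed under 0.05 in all 29 alternatives run. It was 0.0238 for WIPI1, under 0.05 in 28 of 29 (up to 0.0502). It was 0.0215 for LAMP2, 0.0223 for ATP6V0E1 and 0.0231 for ATG4C, each under 0.05 in 26, and 0.0239 for ATG3 and 0.0249 for TFEB, under 0.05 in 25. It was 0.0243 for ATP6V0A1 (24 of 29), whose term rests in part on PC3 libraries of 0 to 13 counts, and 0.0273 for ATG16L1 (22 of 29). The weakest were ATG13 at 0.035 (15 of 29, up to 0.108), ATG5 at 0.0417 (17 of 29, up to 0.165), ATP6V0B at 0.0429 (18 of 29, up to 0.158) and ATG9B at 0.0492 (11 of 29, up to 0.123). With GC and length correction the adjusted p was 0.131 for LAMP2, 0.101 for ATG4C, 0.0835 for ATG3, 0.101 for ATP6V0A1 and 0.143 for ATG5.

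The fitted effects of CTSO were 1.17 in A549, 1.10 in HCT-116, -0.13 in PC3 and -0.47 in T47D, and those of ATG4D were 0.22, 0.82, 0.33 and -0.35 in the same order. WIPI1 was 0.60 in A549, 0.05 in HCT-116, 0.03 in PC3 and -0.37 in T47D. Those of TFEB were -0.39, 0.47, 0.89 and 0.94.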

How the results depend on the processing

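Values of the genes named by the stated criteria and medians were recomputed under the alternatives, and 1557 were unchanged by the following rules. A called gene stayed called in its direction, an uncalled gene stayed uncalled whatever its sign, or a median stayed within a set limit. A further 128 lost and 80 gained a call, and 21 medians moved. In 9, a called gene turned sign or an uncalled one was called in the opposite direction. With 1 fit of all 24 libraries the calls were 10 higher and 6 lower in A549, 21 higher in HCT-116, 3 higher and 0 lower in PC3 and 10 higher in T47D. Scaling by total counts gave 11 lower in PC3. GC and length correction gave 10 lower in HCT-116 and 3 lower in PC3, and with the replicate block 5 higher in T47D. DESeq2 gave 6 higher in T47D and the replicate block 8. The block gave 19 higher and 10 lower in A549, 17 and 18 in HCT-116 and 11 and 6 in PC3, where same-numbered libraries correlated at 0.0143 to 0.247, 0.0818 to 0.328 and 0.0989 to 0.118, and every library correlated best with its own number in HCT-116 and PC3 and 1 pair of 3 in A549. The members whose effect differed from the other 3 lines were, in A549, 2 with RLE size factors, with the block or with GC correction and 0 with total counts or no filter, and in PC3 0 with no filter and 2 with the block.

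Some called genes turned sign with GC correction. Of those named by the stated criteria they were CTSZ in A549, ULK1 in HCT-116 and PC3, and ATG4C in PC3. Without and with the block, CTSZ was -0.0146 and -0.0154, and ULK1 was -0.33 and -0.31 in HCT-116. In PC3 ULK1 was -0.13 and -0.12, and ATG4C was 0.0215 and 0.0227. With GC correction and the block together, MAP1LC3B2 in HCT-116, not called without either, was called at 0.71. The cause was not tested.

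With each library left out, the higher and lower calls ran from 13 to 21 and 6 to 12 in A549, 9 to 15 and 14 to 16 in HCT-116, 5 to 15 and 2 to 13 in PC3 and 0 to 8 and 0 to 10 in T47D. The interaction count ran from 6 to 17, and the members differing from the other 3 lines from 0 to 3 in A549, 4 to 21 in HCT-116, 0 to 3 in PC3 and 1 to 3 in T47D. The normoxic count ran from 59 to 64. With 2 libraries in a group fewer samples enter each fit.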
